A study of Sus scrofa with 12 samples.

Results

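The antioxidant and glutathione enzymes of the pig blastocyst were followed with 58 probes of 38 genes, out of 24908 probes on the EMPV1 array, a porcine array designed for embryos. They are the probes whose gene symbol begins with PRDX, GPX, GST, SOD, TXN or GLRX or is CAT, GSR, GSS, GCLM or MSRA. By function, 45 of the probes (31 genes) stand for antioxidant and glutathione enzymes, thioredoxins included, and 13 probes (7 genes) for TXNIP, an inhibitor of thioredoxin, and for proteins named for a thioredoxin-like fold or domain. GCLC, HMOX1 and NQO1, which the same rule would take, were not analysed here. Gene names are those of the array annotation, which names 10735 of the 24908 probes, and all 38 symbols are also names in the current RefSeq gene table.

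RNA was measured in 12 pools of 5 embryos, 3 pools in each of 4 groups. In vivo (IVV) embryos were flushed from artificially inseminated gilts as expanded blastocysts (IVV XB, at 5, 5 and 6 days after insemination) or as hatched blastocysts (IVV HB, at 5.5 days). Parthenogenetic (PA) embryos came from oocytes matured in vitro and activated with calcium ionomycin and then 6-dimethylaminopurine (DMAP), without sperm. They were cultured in mNCSU-23 medium as PA XB and PA HB. Their collection points are labelled 5, 6 and 6 for PA XB and 7 for PA HB in hours after fertilization, a unit that can hardly hold for blastocysts. Parthenogenetic origin, oocyte maturation in vitro, activation and culture in vitro cannot be told apart in this design. The labelled collection points also differ between origins, in number and in the event they count from. Any difference in age therefore cannot be told apart from origin either. Each value is the log2 ratio of a pool (Cy5) to the same reference RNA pool (Cy3, made from stages from the germinal vesicle oocyte to day 11), so that values of 1 probe can be compared between groups but not values of different probes. With RNA of whole embryos, fewer cells of a type and less RNA per cell cannot be told apart.

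Superoxide made by the respiratory chain and by oxidases is turned into hydrogen peroxide by superoxide dismutases, and peroxide is then removed by catalase, peroxiredoxins and glutathione peroxidases. Most peroxiredoxins draw electrons from thioredoxin and thioredoxin reductase, whereas glutathione peroxidases, glutaredoxins and glutathione transferases use glutathione. Glutathione is made by glutamate-cysteine ligase and glutathione synthetase and recycled by glutathione reductase with NADPH. Mitochondria and cytosol hold separate sets of these enzymes, and preimplantation embryos are widely studied for oxidative damage because culture in vitro can raise their peroxide load.

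Over all probes the arrays had medians between -0.09 and -0.02, and 2 arrays of the same group correlated at between 0.784 and 0.898. The spread of the log2 ratios was wider on the PA arrays (median absolute deviation 0.60 to 0.73) than on the IVV arrays (0.39 to 0.48), and the main values carry no correction for it. For called members and for the compartment medians, scaling all arrays to the same spread or to the same quantiles is therefore given wherever it ends a call or moves a value by more than 1.5 times. Scaling to the same spread enlarges IVV values relative to PA values. A probe far below the reference in both groups compared, such as that of SOD1, thereby moves towards higher in PA. Markers of cell types were also compared between origins, with the test given below. Over all probes, 4.87% were called higher and 3.63% lower in PA HB, and 7.04% and 5.51% in PA XB. Of 5 inner cell mass and hypoblast genes (7 probes), GATA6 and DPPA5 were higher in PA embryos at both stages, with 2 probes in PA HB and 3 in PA XB. The median of the list on single arrays, relative to the IVV XB mean, was -0.16 to 0.21 in IVV XB and 0.12 to 0.58 in IVV HB. It was 0.71 to 1.59 in PA XB and 0.40 to 0.92 in PA HB. Of 8 cumulus and granulosa genes (11 probes), AMH was higher in PA HB (1 probe), and AMH, FST and VCAN were higher in PA XB (3 probes). Array medians of this list were -0.15 to 0.23 in IVV XB and 0.04 to 0.29 in IVV HB. They were 0.24 to 0.40 in PA XB and 0.30 to 0.56 in PA HB. Of 13 trophectoderm genes (24 probes), KRT8 was higher (1 probe) and KRT18 and OCLN were lower (2 probes) in PA HB. In PA XB, GATA2, KRT8 and TFAP2C were higher, CLDN4 and OCLN were lower, and the probes of DAB2 were called in both directions. This made 5 probes higher and 3 lower. For PA HB the paper reports the opposite direction for KRT8, which was lower by quantitative PCR. It also reports GATA2 as lower in PA HB by array and quantitative PCR, whereas GATA2 was not called in PA HB here. Array medians of the trophectoderm list overlapped between origins, at -0.18 to 0.13 in IVV XB and -0.03 to 0.15 in PA XB. They were 0.11 to 0.27 in IVV HB and -0.01 to 0.28 in PA HB. Of 5 blood and uterine genes (5 probes), HBE1 was lower in PA HB and none was called in PA XB. Their array medians also overlapped, at -0.09 to 0.07 in IVV XB and -0.05 to 0.25 in PA XB. They were -0.15 to 0.10 in IVV HB and 0.04 to 0.08 in PA HB. The part of these cells in the results below was not tested, and since the values are ratios to a reference pool, absence of a marker cannot be read from them.

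Between hatched blastocysts, 11 of the 58 probes (19.0%) passed limma's test in PA HB against IVV HB, with an adjusted p no higher than 0.05 and a change of 2-fold or more (a call in what follows), against 8.5% of all probes and 8.36% of probes with a gene symbol. The probes of 7 genes were higher in PA HB (PRDX3, TXNIP, GPX3, GSR, GSS, GSTA1 and TXNDC5; 12.1% of the member probes, 4.87% of all probes), and those of 4 genes were lower (PRDX1, GCLM, GLRX3 and TXNL4A; 6.9% of the member probes, 3.63% of all probes). Between expanded blastocysts, 15 of the 58 (25.9%) differed in PA XB from IVV XB, against 12.6% of all probes and 12.8% of those with a symbol, 8 of them higher (7.04% of all probes) and 7 lower (5.51% of all probes). Among the 45 enzyme probes alone the counts were 8 (17.8%) and 9 (20%). The PA and IVV arrays did not overlap for 22 member probes at the hatched stage (37.9%, all probes 30.0%) and for 28 at the expanded stage (48.3%, all probes 37.2%). Single arrays decided much of the hatched count, as 3 member probes were called when IVV HB replicate 1 was left out (2.61% of all probes), 4 when PA HB replicate 2 was left out (3.92% of all probes) and 7 when PA HB replicate 3 was left out (5.87% of all probes). Leaving out IVV XB replicate 2 or PA XB replicate 2 brought the expanded count to 10 (8.51% and 9.01% of all probes). Quantile normalization gave 6 calls at the hatched stage (4.14% of all probes), 3 higher and 3 lower, with both PRDX6 probes newly among them. Scaling gave 15 calls at the expanded stage (12.2% of all probes), 10 higher and 5 lower, but not the same 15. It lost GSS, TXNL1 and TXNL4A probes 24224 and 29035, and it added PRDX1, GLRX and both PRDX2 probes. The 11 hatched calls after scaling (7.52% of all probes), 8 higher and 3 lower, were not all the same either.

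**Figure D1:**
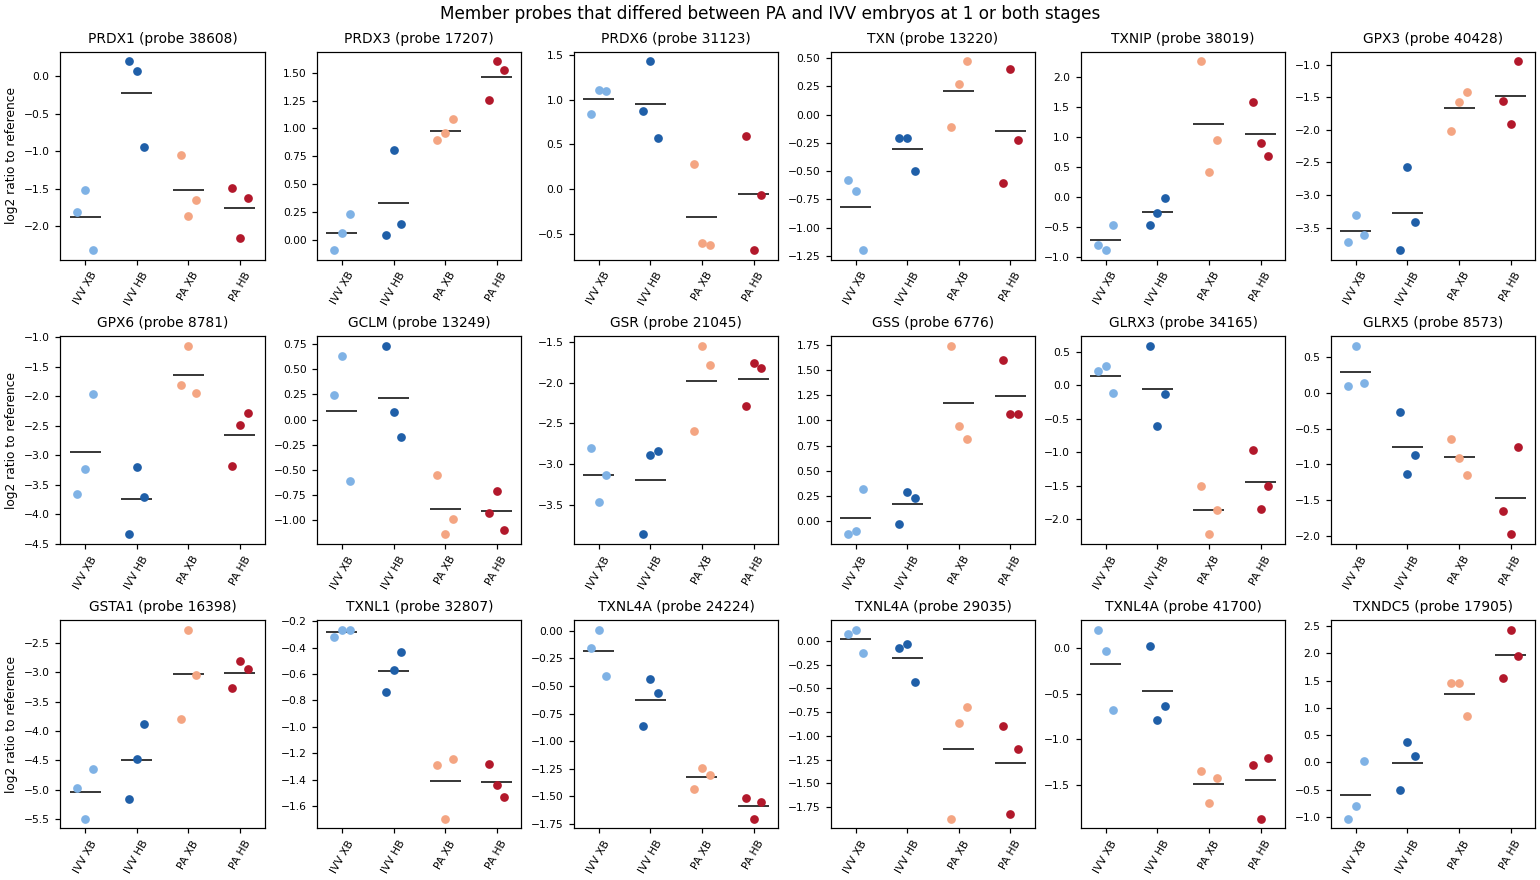
The log2 ratio to the reference pool (vertical axis, with its own range in each panel) is plotted for the 18 member probes that differed between PA and IVV embryos at 1 or both stages, with 1 point for each of the 3 arrays of a group and a bar at the group mean. PRDX1 stands apart from the rest, as its IVV HB arrays (-0.94 to 0.20) lie above all other arrays, whereas in most other panels both PA groups lie on the same side of both IVV groups.

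The superoxide dismutases did not pass the test. SOD1, the copper-zinc enzyme of the cytosol, read -1.71, -2.19 and -2.80 in IVV XB, -3.29, -2.53 and -3.07 in IVV HB, -2.38, -2.08 and -2.13 in PA XB and -1.51, -2.21 and -2.40 in PA HB. All 3 PA HB arrays lay above all 3 IVV HB arrays, and the difference of 0.92 (SE 0.30, adjusted p = 0.0592) missed both limits, while at the expanded stage it was 0.04 (SE 0.30, adjusted p = 0.946). The SOD1 difference between hatched blastocysts passed after scaling (2.05, adjusted p = 0.00467) and when IVV HB replicate 2 was left out (1.14, adjusted p = 0.0346). SOD2, the manganese enzyme of mitochondria, read -0.60, -0.36 and 0.19 in IVV XB, 0.05, -0.11 and 0.32 in IVV HB, -0.46, -0.62 and -1.10 in PA XB and -0.16, -0.80 and -0.25 in PA HB. Its differences of -0.49 (SE 0.26, adjusted p = 0.24) between hatched and -0.47 (SE 0.26, adjusted p = 0.228) between expanded blastocysts pointed the other way from SOD1, with neither past the test. The 3 probes for CAT, the peroxisomal catalase, differed by 0.02 to 0.09 at the hatched and by -0.07 to 0.32 at the expanded stage.

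Peroxiredoxins, abundant peroxide-reducing enzymes of which most are fed by thioredoxin, were split in direction: of 11 probes, PRDX3 was higher and PRDX1 lower in PA HB, and PRDX6 was lower in PA XB. PRDX1, the main cytosolic member, read -1.80, -1.51 and -2.32 in IVV XB, 0.20, 0.08 and -0.94 in IVV HB, -1.05, -1.86 and -1.65 in PA XB and -1.49, -2.16 and -1.62 in PA HB. The 3 IVV HB arrays lay above the other 9, and PA HB was lower than IVV HB by 2.9-fold (log2 difference -1.54, SE 0.33, adjusted p = 0.0106). At the expanded stage the groups overlapped and the difference was 0.36 (SE 0.33, adjusted p = 0.482). The PRDX1 call at the hatched stage was lost after scaling (adjusted p = 0.051) and when either IVV HB replicate 1 or PA HB replicate 2 was left out (0.0618 and 0.0526), and scaling made PA XB higher than IVV XB (1.06, adjusted p = 0.0469).

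PRDX3, the peroxiredoxin of the mitochondrial matrix, had 2 probes. Probe 17207 read -0.10, 0.06 and 0.23 in IVV XB, 0.04, 0.81 and 0.14 in IVV HB, 0.90, 0.96 and 1.08 in PA XB and 1.25, 1.60 and 1.52 in PA HB. All 6 PA arrays lay above all 6 IVV arrays. The difference was 1.13 (SE 0.21, adjusted p = 0.00619) at the hatched stage, or 2.19-fold, and 0.92 (SE 0.21, adjusted p = 0.00943) at the expanded stage, where it stayed under 2-fold. PRDX3 probe 41372 read -0.10, -0.37 and -0.26 in IVV XB, 0.11, -0.50 and -0.25 in IVV HB, -0.68, -0.79 and -0.53 in PA XB and -0.63, -0.59 and -0.50 in PA HB, and so differed by -0.36 (SE 0.19, adjusted p = 0.241) and -0.42 (SE 0.19, adjusted p = 0.133), in the opposite direction. For PRDX3 the mean of both probes differed by 0.39 between hatched blastocysts, and the call of probe 17207 also fell below 2-fold after scaling (0.80) or quantile normalization (0.72) and without IVV HB replicate 1 (0.99).

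PRDX6, a cytosolic peroxiredoxin that also reduces lipid peroxides, read 0.84, 1.10 and 1.09 in IVV XB, 0.87, 1.43 and 0.57 in IVV HB, 0.29, -0.60 and -0.62 in PA XB and 0.59, -0.68 and -0.07 in PA HB with probe 31123. Expanded blastocysts did not overlap, and PA XB was lower by 2.5-fold (log2 difference -1.32, SE 0.33, adjusted p = 0.0129), while hatched blastocysts overlapped at -1.01 (SE 0.33, adjusted p = 0.0616). The second PRDX6 probe (42361) read 0.98, 1.03 and 1.32 in IVV XB, 1.37, 1.71 and 1.37 in IVV HB, 0.89, 0.31 and 0.38 in PA XB and 1.75, -0.13 and 0.11 in PA HB. It differed in the same direction, by -0.58 (SE 0.37, adjusted p = 0.308) and -0.91 (SE 0.37, adjusted p = 0.135), and PA HB replicate 1 stood apart from the other 2 PA HB arrays. Without PA HB replicate 1 both PRDX6 probes passed at the hatched stage, at -1.33 (adjusted p = 0.0178) and -1.50 (adjusted p = 0.00301). The expanded-stage call of probe 31123 was lost with both probes averaged (-0.95, adjusted p = 0.0656), and when IVV XB replicate 2, PA XB replicate 2 or PA XB replicate 3 was left out (0.0545, 0.0584 and 0.053). Quantile normalization moved the expanded-stage differences of the PRDX6 probes to -2.15 and -1.69 (adjusted p = 0.00614 for the second), and after scaling or quantile normalization both probes also passed at the hatched stage, with -1.18 to -1.65.

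The other 6 peroxiredoxin probes were not called. PRDX2, a second cytosolic enzyme, had probes at 0.77 (adjusted p = 0.0866) and 0.07 (adjusted p = 0.919) between hatched and at 0.57 (adjusted p = 0.17) and 0.75 (adjusted p = 0.118) between expanded blastocysts, all above 0. PRDX2 probe 21978 passed after scaling at both stages, at 1.55 (adjusted p = 0.0211) and 1.43 (adjusted p = 0.0218), and at the hatched stage when IVV HB replicate 2 was left out (1.04, adjusted p = 0.0237). Probe 3683 of PRDX2 passed after scaling at the expanded stage (1.05, adjusted p = 0.023). PRDX4 of the secretory pathway differed by 0.34 and 0.01, and the 3 probes of PRDX5, which is found in mitochondria, peroxisomes and cytosol, ranged from -0.25 to 0.15 at the hatched and from -0.54 to 0.71 at the expanded stage.

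In the thioredoxin system, thioredoxin itself and its inhibitor were higher in PA XB, and no reductase passed. TXN, cytosolic thioredoxin, read -0.58, -0.67 and -1.20 in IVV XB, -0.21, -0.21 and -0.50 in IVV HB, -0.11, 0.27 and 0.47 in PA XB and -0.61, 0.40 and -0.22 in PA HB. The expanded groups did not overlap and differed by 1.03 (SE 0.26, adjusted p = 0.0148), or 2.04-fold, whereas the hatched groups overlapped at 0.16 (SE 0.26, adjusted p = 0.746). The TXN call was lost when PA XB replicate 2, PA XB replicate 3 or IVV XB replicate 3 was left out (adjusted p of 0.0522, 0.0589 and 0.054). TXN2, the mitochondrial thioredoxin, read -0.63, -0.06 and -0.06 in IVV XB, 0.57, -0.60 and 0.01 in IVV HB, -0.43, -0.66 and -0.55 in PA XB and -0.55, -0.43 and -0.32 in PA HB with probe 38557. With probe 4799 it read -0.70, -0.40 and 0.07, then 0.30, -0.08 and 0.22, then -0.69, 0.03 and -0.19, and then -0.58, 0.44 and 0.46 in the same order of groups. The PA and IVV arrays of TXN2 overlapped for both probes at both stages, with differences of -0.43 and -0.04 between hatched and -0.29 and 0.06 between expanded blastocysts.

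None of the reductases, which return thioredoxin to its reduced form, was called. TXNRD1, the cytosolic one, read 0.12, 0.01 and 0.09 in IVV XB, 0.48, -0.08 and -0.02 in IVV HB, -0.02, 0.27 and 0.28 in PA XB and -0.11, 0.36 and 0.43 in PA HB, a difference of 0.10 at either stage (SE 0.21). TXNRD2, the mitochondrial one, read -0.23, 0.08 and 0.23 in IVV XB, 0.06, -0.77 and 0.10 in IVV HB, 0.25, 0.84 and 0.28 in PA XB and 0.29, -0.39 and -0.19 in PA HB. Its differences were 0.11 (SE 0.27, adjusted p = 0.847) at the hatched and 0.43 (SE 0.27, adjusted p = 0.303) at the expanded stage, where all PA arrays lay above all IVV arrays. TXNRD3, a reductase known best from the testis, differed by 0.24 (SE 0.26, adjusted p = 0.601) and by 0.66 (SE 0.26, adjusted p = 0.0923), also without overlap at the expanded stage.

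TXNIP, which binds thioredoxin and blocks its active site, was among the most changed members. It read -0.81, -0.89 and -0.48 in IVV XB, -0.46, -0.26 and -0.02 in IVV HB, 2.26, 0.42 and 0.95 in PA XB and 1.59, 0.90 and 0.69 in PA HB. No PA array overlapped any IVV array, although PA XB replicate 1 lay far above the other PA arrays of its stage. TXNIP was higher by 3.82-fold in PA XB (log2 difference 1.93, SE 0.38, adjusted p = 0.00387) and by 2.47-fold in PA HB (1.31, SE 0.38, adjusted p = 0.0369). Leaving out any 1 of the 6 hatched arrays ended the hatched-stage call of TXNIP (adjusted p from 0.0508 to 0.151), as did quantile normalization (adjusted p = 0.11), while the expanded-stage call held in all 13 alternatives.

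Glutathione peroxidases, which reduce peroxides with glutathione, had all 5 probes above 0 between hatched blastocysts (52.2% of all probes were), also after scaling or quantile normalization, though 1 of the 5 was called, and at the expanded stage 3 lay above and 2 below 0 (52.1% of all probes lay above). GPX3, the secreted plasma enzyme, read -3.72, -3.31 and -3.61 in IVV XB, -3.84, -2.56 and -3.41 in IVV HB, -2.01, -1.57 and -1.42 in PA XB and -1.56, -1.91 and -0.95 in PA HB with probe 40428. No PA array overlapped any IVV array, and PA embryos were higher by 3.47-fold at the hatched stage (log2 difference 1.80, SE 0.32, adjusted p = 0.00437) and 3.68-fold at the expanded stage (1.88, SE 0.32, adjusted p = 0.00176). The second GPX3 probe (39544) did not follow: it read -0.15, -0.48 and -0.66 in IVV XB, -0.65, -0.83 and -0.81 in IVV HB, -1.02, -0.82 and -0.85 in PA XB and -0.29, -0.87 and -0.55 in PA HB, with differences of 0.19 (SE 0.20, adjusted p = 0.581) and -0.47 (SE 0.20, adjusted p = 0.112). The GPX3 probes averaged differed by 0.99 and 0.70, under 2-fold, and scaling raised the differences of probe 40428 to 2.93 and 3.00. In IVV embryos this probe read far below the reference, as did the called probes of GPX6, GSR and GSTA1 below. Spot intensities were not used, so how near these signals lay to the background was not assessed.

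GPX6, a secreted relative known from olfactory tissue, read -3.66, -3.23 and -1.96 in IVV XB, -4.34, -3.20 and -3.71 in IVV HB, -1.81, -1.14 and -1.95 in PA XB and -3.18, -2.49 and -2.28 in PA HB. The groups met edge to edge at both stages without overlapping. GPX6 was higher in PA XB by 1.31 (SE 0.41, adjusted p = 0.0386), and the hatched difference of 1.10 (SE 0.41, adjusted p = 0.1) was not called. The GPX6 call was fragile: it was lost with the expanded groups fitted alone (adjusted p = 0.0566) and when IVV XB replicate 1 or 2 (0.173 and 0.141) or PA XB replicate 1, 2 or 3 (0.0524, 0.149 and 0.0537) was left out. Scaling raised the GPX6 differences to 2.30 at the expanded and 2.55 (adjusted p = 0.0137) at the hatched stage. GPX5, known from the epididymis, differed by 0.18 and 0.51. GPX1, the widespread enzyme of cytosol and mitochondria, read 1.69, 0.97 and -1.40 in IVV XB, -0.96, 0.12 and 0.25 in IVV HB, -0.27, -0.49 and 0.30 in PA XB and 1.37, 0.63 and 1.18 in PA HB. Its IVV XB arrays spanned more than those of any other group, with replicate 3, collected at 6 instead of 5 days, the lowest. PA HB lay above IVV HB on all arrays at 1.26 (SE 0.59, adjusted p = 0.192), which was called with the hatched groups fitted alone (adjusted p = 0.0448). The expanded difference of -0.57 (SE 0.59, adjusted p = 0.54) became -1.49 (adjusted p = 0.0169) when IVV XB replicate 3 was left out.

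Of the enzymes that make and recycle glutathione, GSS and GSR were higher and GCLM was lower in PA embryos. GSS, glutathione synthetase, which adds glycine in the last step, read -0.13, -0.10 and 0.32 in IVV XB, -0.03, 0.29 and 0.23 in IVV HB, 1.74, 0.94 and 0.82 in PA XB and 1.61, 1.06 and 1.06 in PA HB. All PA arrays lay above all IVV arrays, by 1.08 (SE 0.26, adjusted p = 0.017) at the hatched and 1.14 (SE 0.26, adjusted p = 0.0077) at the expanded stage, or 2.11-fold and 2.2-fold. The GSS calls fell under 2-fold after scaling (0.82 and 0.93), after quantile normalization at the hatched stage (0.82), and when IVV HB replicate 1 (0.98), PA HB replicate 1 (0.90) or, at the expanded stage, PA XB replicate 1 (0.85) was left out. GCLM, the modifier subunit of the ligase that sets the pace of glutathione synthesis, read 0.24, 0.64 and -0.61 in IVV XB, 0.74, 0.07 and -0.17 in IVV HB, -0.56, -1.14 and -0.99 in PA XB and -0.93, -0.71 and -1.10 in PA HB. The hatched groups did not overlap and the expanded groups did. GCLM was lower in PA HB (log2 difference -1.13, SE 0.31, adjusted p = 0.0313), and at the expanded stage the difference of -0.98 (SE 0.31, adjusted p = 0.0392) stayed just under 2-fold, which it passed when PA XB replicate 1 (-1.15) or IVV XB replicate 3 (-1.33) was left out. The hatched-stage call of GCLM was lost after scaling (adjusted p = 0.0869) or quantile normalization (0.119), and when IVV HB replicate 1 (0.163) or PA HB replicate 1, 2 or 3 (0.0548, 0.0687 and 0.0947) was left out.

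GSR, glutathione reductase, read -2.80, -3.47 and -3.13 in IVV XB, -3.87, -2.89 and -2.84 in IVV HB, -2.60, -1.54 and -1.78 in PA XB and -2.29, -1.76 and -1.82 in PA HB with probe 21045. The groups did not overlap at either stage, and PA embryos were higher by 1.24 (SE 0.32, adjusted p = 0.025) and 1.16 (SE 0.32, adjusted p = 0.022). GSR probe 19397 read -0.72, -1.12 and -0.79 in IVV XB, -1.18, -0.37 and -0.58 in IVV HB, -1.02, 0.02 and 0.05 in PA XB and -0.46, -0.77 and 0.07 in PA HB, overlapping at both stages with differences of 0.32 and 0.56. Averaging the GSR probes gave 0.78 and 0.86. The hatched-stage call did not survive leaving out IVV HB replicate 1 or either of PA HB replicates 2 and 3 (adjusted p of 0.133, 0.0939 and 0.0733). The expanded-stage call did not survive leaving out IVV XB replicate 2, PA XB replicate 2 or PA XB replicate 3 (adjusted p of 0.103, 0.0981 and 0.0728), nor quantile normalization, where the difference was 0.93. Scaling moved the GSR differences up to 2.41 and 2.22.

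Glutaredoxins, small enzymes that use glutathione to reduce disulphides or to carry iron-sulphur clusters, lay mostly below 0 in PA embryos: 5 of 7 probes at the hatched and 6 of 7 at the expanded stage (52.2% and 52.1% of all probes lay above 0), with the same counts after scaling and quantile normalization. GLRX3, a cytosolic and nuclear glutaredoxin of iron handling, had its lowest values in PA XB with probe 34165, which read 0.22, 0.29 and -0.12 in IVV XB, 0.59, -0.62 and -0.13 in IVV HB, -1.51, -2.23 and -1.86 in PA XB and -0.97, -1.85 and -1.51 in PA HB. No PA array overlapped any IVV array. GLRX3 was lower in PA XB by 3.98-fold (log2 difference -1.99, SE 0.31, adjusted p = 0.00109) and in PA HB by 2.62-fold (-1.39, SE 0.31, adjusted p = 0.0126). The expanded-stage call held in all 13 alternatives, while the hatched-stage call was lost on quantile normalization (adjusted p = 0.0509) and on leaving out IVV HB replicate 1 (0.069) or PA HB replicate 2 (0.0618). Neither of the other GLRX3 probes was called, but both pointed the same way. Probe 30706 read 0.03, 0.24 and -0.71 in IVV XB, 0.63, -0.76 and -0.51 in IVV HB, -1.27, -1.06 and -1.12 in PA XB and -1.24, -1.83 and -0.61 in PA HB, with differences of -1.01 (adjusted p = 0.0929) and -1.0 (adjusted p = 0.0762), the second of which passed when IVV XB replicate 3 was left out (-1.28, adjusted p = 0.037). Probe 10811 read -0.26, 0.05 and -0.66, then 0.13, -0.31 and -0.76, then -0.54, -0.89 and -0.67, and then -1.14, -0.70 and -1.27 in the same order, with differences of -0.72 and -0.41. The mean of the 3 GLRX3 probes differed by -1.13 at the expanded stage.

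GLRX5, the mitochondrial glutaredoxin of iron-sulphur cluster assembly, read 0.09, 0.66 and 0.13 in IVV XB, -0.28, -1.13 and -0.87 in IVV HB, -0.65, -0.91 and -1.15 in PA XB and -1.66, -1.98 and -0.76 in PA HB. IVV XB lay above all 9 other arrays, and PA XB was lower than IVV XB by 2.29-fold (log2 difference -1.20, SE 0.31, adjusted p = 0.0156). Hatched blastocysts overlapped, at -0.71 (SE 0.31, adjusted p = 0.159). The GLRX5 call was lost when IVV XB replicate 2 or PA XB replicate 3 was left out (adjusted p of 0.0816 and 0.0589), and the hatched difference passed when PA HB replicate 3 was (-1.06, adjusted p = 0.0418). GLRX2, the other mitochondrial glutaredoxin, read 0.17, -0.02 and -0.10 in IVV XB, -0.14, -0.08 and -0.27 in IVV HB, 0.11, -0.46 and -0.28 in PA XB and 0.45, -0.29 and -0.03 in PA HB with probe 18406, and its probe 9710 read -0.88, -1.18 and -1.20, then -1.30, -1.59 and -1.19, then -1.28, -0.69 and -1.11, and then -1.22, -1.21 and -1.17. Both GLRX2 probes overlapped between origins at both stages, with differences between -0.23 and 0.21. GLRX, the classic cytosolic glutaredoxin, read 0.96, 1.25 and 1.25 in IVV XB, 1.13, 0.43 and -0.21 in IVV HB, 0.67, -0.36 and -0.75 in PA XB and 0.75, -1.28 and -0.47 in PA HB. The expanded groups did not overlap, but the difference of -1.30 (SE 0.47, adjusted p = 0.07) was not called. It passed after scaling (-1.54, adjusted p = 0.0311) and quantile normalization (-2.32, adjusted p = 0.0126), in the more variable 50% of probes (adjusted p = 0.0321), with the expanded groups fitted alone (adjusted p = 0.0263) and when PA XB replicate 1 was left out (-1.71, adjusted p = 0.0231).

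Among glutathione transferases, which join glutathione to reactive compounds, GSTA1 was the 1 member called. GSTP1, which the paper lists among genes changed in PA HB, is the symbol of no member probe and was not analysed. GSTA1, an alpha-class enzyme abundant in steroid-making cells and liver, read -4.97, -5.49 and -4.64 in IVV XB, -5.15, -4.47 and -3.88 in IVV HB, -3.79, -2.28 and -3.04 in PA XB and -3.27, -2.81 and -2.95 in PA HB. The PA arrays lay above the IVV arrays at both stages, by 3.99-fold in PA XB (log2 difference 2.00, SE 0.38, adjusted p = 0.00322) and 2.81-fold in PA HB (1.49, SE 0.38, adjusted p = 0.0219). Between-array scaling pulled GSTA1 in both directions, to 3.69 and 3.16 with scaling and to 1.02 (adjusted p = 0.0688) and 0.84 (adjusted p = 0.183) with quantile normalization. The hatched-stage call was also lost when IVV HB replicate 1 or either of PA HB replicates 2 and 3 was left out (adjusted p of 0.12, 0.0862 and 0.0617). The array medians of the cumulus and granulosa list, cells of a steroid-making tissue, did not overlap between origins at either stage, by a narrow margin. The lowest PA HB median was 0.295 and the highest IVV HB median 0.293. At the expanded stage these were 0.237 for PA XB and 0.227 for IVV XB. Of the 11 probes of the list, 1 was called higher in PA HB (4.87% of all probes) and 3 in PA XB (7.04% of all probes), with none lower. The part of these cells in GSTA1 was not tested. Alpha-class transferases are near copies of each other, and whether the GSTA1 probe also reads others was not tested.

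The remaining transferases and the methionine sulfoxide reductase were not called. GSTM3, a mu-class enzyme, read 0.07, -0.95 and -4.05 in IVV XB with probe 32288, -4.90, -3.52 and -3.37 in IVV HB, -3.58, -2.49 and -2.83 in PA XB and -3.58, -4.25 and -2.06 in PA HB. IVV XB replicates 1 and 2 lay far above the other 10 arrays and replicate 3 among them, so that the difference at the expanded stage was -1.32 (SE 0.83, adjusted p = 0.297) and, without IVV XB replicate 3, -2.52 (adjusted p = 0.0119). The other GSTM3 probe (39946) differed by -0.82 (SE 0.23, adjusted p = 0.0253) at the expanded stage, under 2-fold, or -1.04 (adjusted p = 0.0146) when PA XB replicate 3 was left out, and by -0.08 at the hatched stage. GSTA4, which removes products of lipid peroxidation, differed by -0.37 and 0.07. GSTK1 of mitochondria and peroxisomes differed by -0.58 and -0.57, GSTZ1 of tyrosine breakdown by 0.21 and -0.05, and MSRA, which repairs oxidised methionine, by -0.41 and -0.09.

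TXNIP and the proteins named for a thioredoxin-like fold or domain held 3 of the hatched and 6 of the expanded calls. TXNDC5, a disulphide isomerase of the endoplasmic reticulum, read -1.03, -0.80 and 0.02 in IVV XB, -0.51, 0.38 and 0.11 in IVV HB, 1.46, 1.46 and 0.86 in PA XB and 1.55, 2.43 and 1.96 in PA HB. All PA arrays lay above all IVV arrays, by 3.97-fold at the hatched stage (log2 difference 1.99, SE 0.32, adjusted p = 0.0029) and 3.63-fold at the expanded stage (1.86, SE 0.32, adjusted p = 0.002), and both TXNDC5 calls held in all 13 alternatives. TXNL1, a proteasome-bound thioredoxin-like protein, read -0.32, -0.27 and -0.27 in IVV XB, -0.74, -0.57 and -0.43 in IVV HB, -1.29, -1.70 and -1.24 in PA XB and -1.28, -1.44 and -1.53 in PA HB with probe 32807. The PA arrays lay below all IVV arrays, with -1.12 (SE 0.18, adjusted p = 0.0013) at the expanded stage and -0.84 (SE 0.18, adjusted p = 0.011), under 2-fold, at the hatched stage. The TXNL1 call fell under 2-fold after scaling (-0.80), quantile normalization (-0.94) and averaging with probe 33041 (-0.64) and without PA XB replicate 2 (-0.98). Probe 33041 of TXNL1 read -0.45, -0.49 and -0.24, then -0.22, 0.10 and -0.57, then -0.91, -0.60 and -0.17, and then -1.13, -0.70 and -0.63 in the same order of groups, and differed by -0.16 and -0.59 at the expanded and hatched stages.

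TXNL4A, a part of the spliceosome with a thioredoxin fold, had 5 probes that fell into 2 kinds. Probe 29035 read 0.08, 0.12 and -0.13 in IVV XB, -0.08, -0.03 and -0.44 in IVV HB, -1.87, -0.86 and -0.69 in PA XB and -0.89, -1.82 and -1.14 in PA HB, probe 24224 read -0.15, 0.01 and -0.41, then -0.86, -0.44 and -0.57, then -1.43, -1.25 and -1.31, and then -1.52, -1.70 and -1.55, and probe 41700 read 0.20, -0.04 and -0.68, then 0.02, -0.79 and -0.64, then -1.35, -1.70 and -1.42, and then -1.28, -1.87 and -1.20. For these 3 TXNL4A probes all PA arrays lay below all IVV arrays. They were lower in PA XB, with log2 differences of -1.16 (adjusted p = 0.0156), -1.14 (adjusted p = 0.00128) and -1.32 (adjusted p = 0.00554), and in PA HB they stood at -1.10 (adjusted p = 0.0302), -0.97 (adjusted p = 0.00591) and -0.98 (adjusted p = 0.0342), of which the first passed 2-fold. Probes 17397 and 34219 of TXNL4A differed by 0.13 and -0.27 at the hatched and by -0.01 and -0.12 at the expanded stage, with PA and IVV arrays overlapping throughout. In the order of the groups above, probe 17397 read -0.07, -0.05 and 0.25, then -0.27, -0.05 and -0.27, then -0.02, 0.15 and -0.04, and then 0.15, -0.13 and -0.21, and probe 34219 read 0.10, -0.15 and -0.08, then 0.01, -0.13 and -0.07, then 0.01, -0.40 and -0.11, and then -0.38, -0.98 and 0.36. The mean of all 5 TXNL4A probes differed by -0.64 and -0.75. The hatched call of probe 29035 was also lost after scaling (-0.79) and quantile normalization (-0.90) and when IVV HB replicate 1, 2 or 3 (adjusted p of 0.12, 0.073 and 0.054) or PA HB replicate 2 or 3 (0.13 and 0.0589) was left out. Probe 24224 passed 2-fold at the hatched stage when IVV HB replicate 1 (-1.09) or PA HB replicate 1 (-1.01) was left out, and probe 41700 when IVV HB replicate 2 (-1.14) or PA HB replicate 1 (-1.07) was. At the expanded stage the call of TXNL4A probe 29035 was lost after scaling (-0.97) and when IVV XB replicate 1 or 2 (adjusted p of 0.0549 and 0.0629) or PA XB replicate 1 (-0.80) was left out, and that of TXNL4A probe 24224 after scaling (-0.87) and quantile normalization (-0.99). TXNDC12 of the endoplasmic reticulum, the 2 probes of cytosolic TXNDC17 and TXNDC8, known from sperm, were not called, with differences from -0.52 to 0.06 at the hatched and from -0.42 to 0.35 at the expanded stage.

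**Figure D2:**
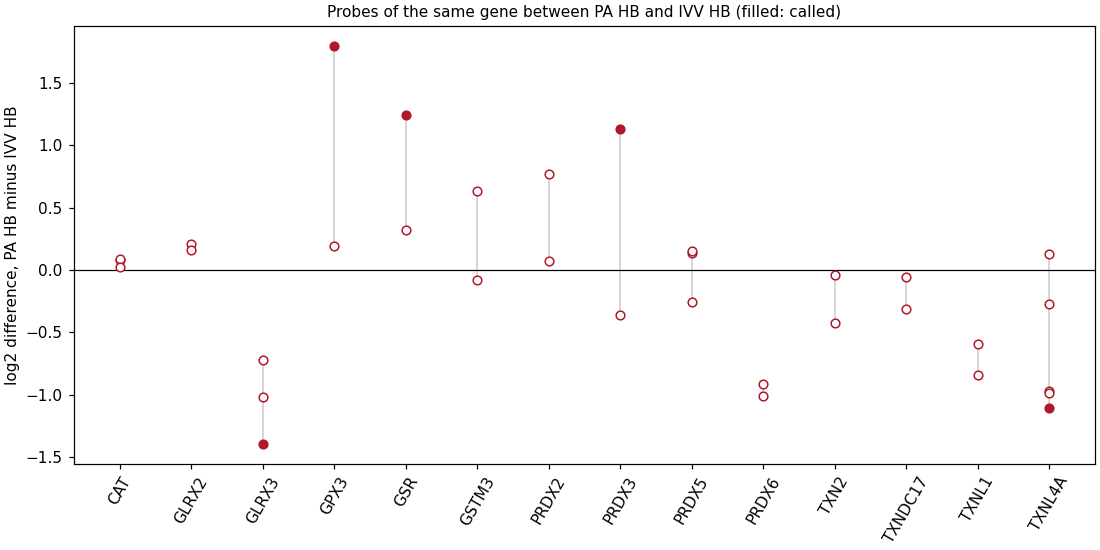
The log2 difference between PA HB and IVV HB (vertical axis) is plotted for each probe of the 14 member genes that have more than 1 probe, with filled points for called probes (adjusted p no higher than 0.05 and 2-fold or more). For PRDX3 the probes lie on both sides of 0 (1.13 and -0.36), and for GPX3 (1.80 and 0.19) and GSR (1.24 and 0.32) 1 probe of 2 was called.

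Mitochondrial and cytosolic enzymes were set side by side by the differences of their probes. Of 10 mitochondrial probes (7 genes), 1 was higher and none lower in PA HB, and none was higher and 1 lower in PA XB, where 8.5% and 12.6% of all probes were called. Of 23 cytosolic probes (16 genes), 3 were higher and 3 lower in PA HB, and 4 were higher and 3 lower in PA XB. Among the 18 cytosolic enzyme probes, without TXNIP, TXNL1 and TXNDC17, these counts were 2 higher and 3 lower and then 3 higher and 2 lower. The median difference at the hatched stage was -0.20 over the mitochondrial and -0.31 over the cytosolic probes, and at the expanded stage it was -0.26 over both, beside 0.02 and 0.03 over all probes. Over the cytosolic enzyme probes alone it was -0.23 and -0.19. The difference between the compartments was not tested, and both sets hold members on either side of 0, from -0.71 to 1.13 for the mitochondrial and from -1.54 to 1.49 for the cytosolic probes at the hatched stage. The cytosolic median moved to -0.056 after scaling and to -0.043 with the probes of a gene averaged at the hatched stage, and to 0.053 with probes averaged at the expanded stage. After scaling the expanded-stage medians were both -0.16, and after quantile normalization the mitochondrial one was -0.15. Leaving out IVV HB replicate 1 or PA HB replicate 2 moved the cytosolic median to -0.13 or -0.11 at the hatched stage. Without IVV XB replicate 3 the cytosolic median was -0.48 at the expanded stage. The mitochondrial median was between -0.34 (IVV HB replicate 2 left out) and -0.053 (IVV HB replicate 1 left out) at the hatched stage, and -0.17 at the expanded stage with PA XB replicate 2 left out. The 7 probes of secretory-pathway members had 2 higher in PA HB and 3 higher in PA XB (4.87% and 7.04% of all probes), with none lower (3.63% and 5.51% of all probes). The 9 probes (6 genes) of members found in several compartments, such as PRDX5 and GPX1, were in neither set. At each stage 1 of them, a GSR probe, was higher and none lower, with medians of 0.21 at the hatched and -0.05 at the expanded stage. GSTK1, also of peroxisomes, was counted as mitochondrial, and GLRX3, also nuclear, as cytosolic.

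**Figure D3:**
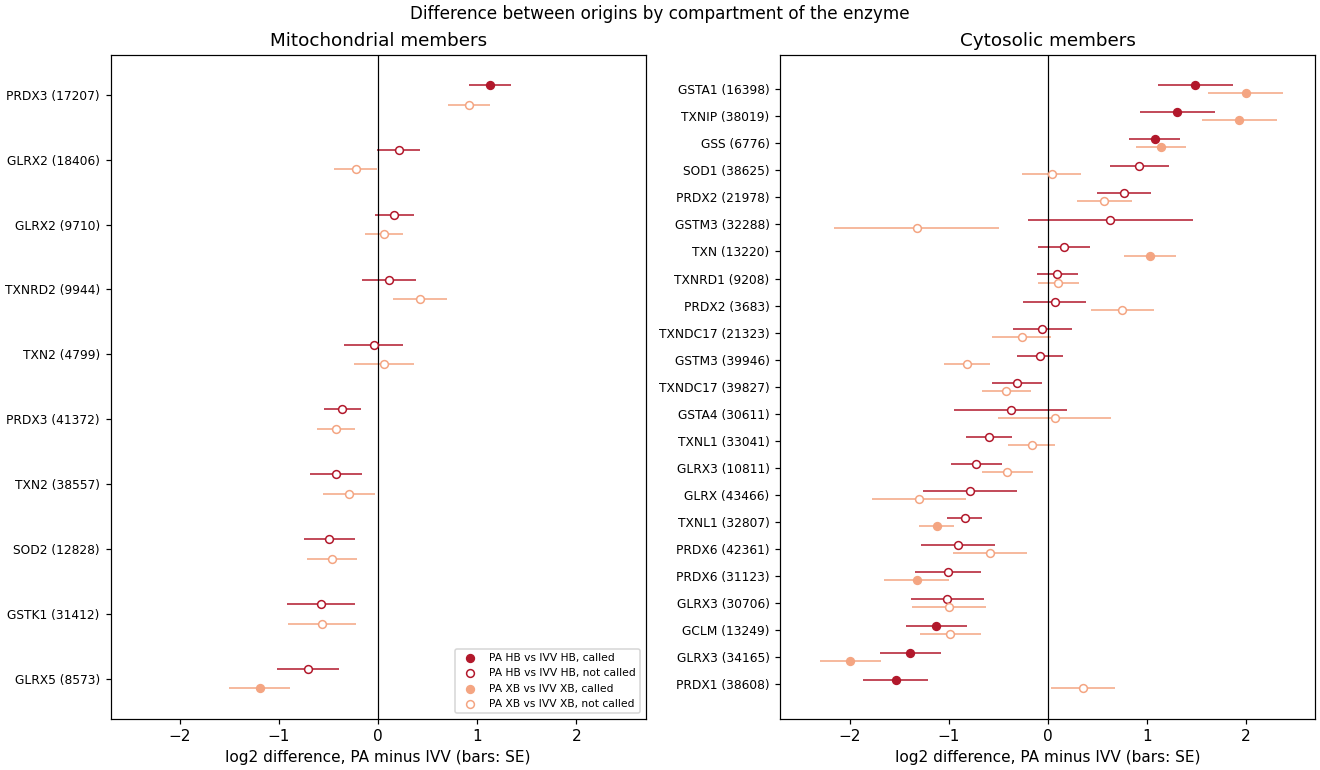
The log2 difference between PA and IVV embryos (horizontal axis, bars show the SE of the limma fit) is plotted for each mitochondrial probe (left) and cytosolic probe (right), with the hatched stage in red, the expanded stage in light orange and filled points for called differences. The called mitochondrial probes are PRDX3 (1.13) at the hatched and GLRX5 (-1.20) at the expanded stage, and cytosolic probes reach from -1.99 for GLRX3 to 2.00 for GSTA1.

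Pairs with the same task in either compartment did not move as 1 set. For the dismutases the differences were 0.92 (SOD1) and -0.49 (SOD2) at the hatched and 0.04 and -0.47 at the expanded stage, none called. Among peroxiredoxins, cytosolic PRDX1 was lower and 1 of the 2 probes of mitochondrial PRDX3 higher in PA HB. In PA XB, PRDX1 was at 0.36 and the PRDX3 probes at 0.92 and -0.42, none called. TXN was higher in PA XB by 1.03 while the TXN2 probes were at -0.29 and 0.06. TXNRD1 and TXNRD2 were at 0.10 and 0.43 there. In PA HB, TXN was at 0.16, the TXN2 probes at -0.43 and -0.04, and TXNRD1 and TXNRD2 at 0.10 and 0.11. In both compartments a glutaredoxin was lower in PA XB, with log2 differences of -1.99 for GLRX3 and -1.20 for GLRX5.

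Across the 2 stages, 8 member probes were called at both, all 8 in the same direction: higher for TXNIP, GPX3, GSR, GSS, GSTA1 and TXNDC5 and lower for GLRX3 and TXNL4A. They make up 72.7% of the hatched and 53.3% of the expanded calls, where over all probes 1597 calls were shared, 1596 of them in the same direction, or 75.4% and 51.1%. The other calls passed at 1 stage, 3 at the hatched (PRDX1, PRDX3 and GCLM) and 7 at the expanded stage (PRDX6, TXN, GPX6, GLRX5, TXNL1 and 2 probes of TXNL4A). A call at 1 stage does not show that the stages differ. The direct test of that difference, which equals the difference between the hatching changes of PA and IVV embryos, called none of the 58 probes with limma (0.00803% of all probes). At an unadjusted p below 0.05, 5 members passed (8.62%, all probes 4.93%), namely GPX1, GPX3, GSTM3, PRDX1 and TXN, and none of the planned settings with all arrays called any. PRDX1 had a value of -1.89 (SE 0.46, adjusted p = 0.62) and GPX1 of 1.84 (SE 0.84, adjusted p = 0.994), and without IVV XB replicate 3 GPX1 passed at 2.75 (adjusted p = 0.0496).

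**Figure D4:**
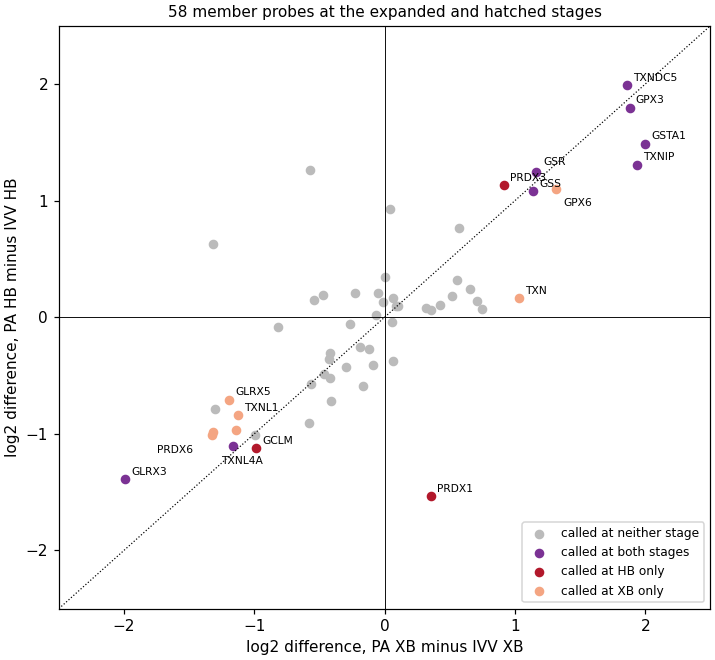
The log2 difference between PA HB and IVV HB (vertical axis) is plotted against that between PA XB and IVV XB (horizontal axis) for the 58 member probes, coloured by the stage at which they were called, with a dotted line where both differences are equal. The 8 probes called at both stages lie near the line from GLRX3 (-1.99 and -1.39) to TXNDC5 (1.86 and 1.99), and PRDX1 (0.36 and -1.54) lies far below it.

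Hatching itself, the step in which the blastocyst leaves the zona pellucida, changed no member past the test, in comparisons that share their arrays with those above. From IVV XB to IVV HB, limma called 0 of 58 probes (0.149% of all probes), and 7 passed an unadjusted p below 0.05 (12.1%, all probes 6.36%): GLRX5, GSTM3, MSRA, PRDX1, PRDX4, SOD1 and TXNL4A. PRDX1 had the lowest adjusted p, with 1.66 (SE 0.33, adjusted p = 0.0762) or 3.15-fold from expanded to hatched, without overlap of its arrays. It passed with arrays scaled (2.03, adjusted p = 0.0174) and in the more variable 50% of probes (adjusted p = 0.0403). GLRX5 was at -1.05 (SE 0.31, adjusted p = 0.332) and GSTM3 probe 32288 at -2.29 (SE 0.83, adjusted p = 0.534), which passed at -3.49 (adjusted p = 0.012) without IVV XB replicate 3. From PA XB to PA HB, 0 of 58 were called (0.00803% of all probes), 4 passed an unadjusted p below 0.05 (6.9%, all probes 6.35%), namely GPX6, PRDX3, PRDX5 and TXNDC5, and no alternative called any. PRDX1 stood at -0.24 (SE 0.33, adjusted p = 0.959) in this comparison.

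Genes around these enzymes were counted by list, where over all probes 4.87% were called higher and 3.63% lower in PA HB and 7.04% higher and 5.51% lower in PA XB. Of 13 measured genes of the NRF2 and KEAP1 system, which induces many antioxidant enzymes, 1 was higher in PA HB and 2 were higher in PA XB, with none lower, which is 1 and 2 of 25 probes. FTL, the ferritin light chain that stores iron, was higher by 2.46 (SE 0.19, adjusted p = 5.47e-05) and 3.46 (SE 0.19, adjusted p = 1.96e-06), and TALDO1 of the pentose phosphate pathway by 1.06 (SE 0.33, adjusted p = 0.0348) in PA XB with 1 of its 2 probes. Of 9 genes (10 probes) that supply NADPH, none was called in PA HB. In PA XB, PGD (1.73), ME1 (1.25) and ME2 (1.17) were among 3 higher genes, and 1 was lower. Of 28 other genes (44 probes) of thiol and peroxide handling, PDIA6, a disulphide isomerase, was higher in PA HB with 2 of its 8 probes (2.10 and 1.89), PARK7, a redox-sensitive chaperone, was lower (-1.44), and 4 genes were higher in PA XB. Of 7 genes (8 probes) for oxidases that make superoxide, none was called at either stage. None of these lists had a called gene in the hatching comparisons.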

How the data were processed

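The analysis used the log2 ratios of sample (Cy5) over reference pool (Cy3) that the authors deposited for 12 arrays and 24908 probes, with none missing. According to their methods, the authors subtracted the background and applied a global loess within each array in FlexArray. Base and direction were checked against the deposited group differences (781 of 1031 genes of the study's fold change table had a named probe within 0.0005), and no value of that table was used. No between-array normalization was added and spot intensities were not used here. The number of arrays limits the precision.

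limma 3.58.1 (R 4.3.3 with the data.table package, version 1.17.8) estimated the 4 group means from the 12 arrays together, with 8 residual and 5.64 prior degrees of freedom. Benjamini-Hochberg adjustment covered the 24908 probes, and a call needed 0.05 or less after it and a 2-fold change. Errors beside differences are SE of the fit. Tables and plots were made with Python 3.11.15, pandas 2.3.3 and matplotlib 3.10.9. The procedure was tested on simulated data. Compartments were assigned by general knowledge of each gene.

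Members, gene lists and tests were chosen with earlier results of these data known. Values on each array are given for every called member, for the other probes of the same genes and for mitochondrial and cytosolic counterparts, and other list genes by counts with at most 3 named per list and comparison, those with the lowest p. Marker genes are named where called.

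Same-numbered PA XB and PA HB arrays deviated together (r = 0.454, 0.321 and 0.220), so for parthenotes a pairing by number was fitted as an added alternative. The values from PA XB to PA HB in Results come from the main fit, which has no pairing. In each of the other comparisons at least 1 pair was under 0.1, and the number served there only as a block in an alternative. The methods call the 3 arrays of a group biological replicates, and within IVV XB and PA XB the labelled collection times differ. The labels do not say whether same-time pools came from separate collections, so p-values measure the spread between these pools. Alternatives were median-absolute-value scaling, blocking on the replicate number, quantile normalization, averaging of probes with the same symbol, the more variable 50% of probes, the compared groups alone, no fold limit, and each array left out. A planned search of promoters for the antioxidant response element was not run.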

Additional observations from a re-analysis of the deposited data

How the results depend on the processing

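The number of member probes called between hatched blastocysts (11) was 6 after quantile normalization and 7 with the probes of a gene averaged, and from 3 to 12 with 1 array left out. Between expanded blastocysts (15) it was 8 with probes averaged and from 10 to 18 with 1 array left out. From IVV XB to IVV HB, where none was called, 1 was called after scaling, with the replicate number as a block and in the more variable 50% of probes, each time PRDX1, and from 0 to 1 with 1 array left out. The difference between the hatching changes gave from 0 to 1, and PA XB to PA HB gave 0 throughout. Of the 26 calls between origins, none changed direction in the alternatives run, 11 were lost with probes averaged, 11 with quantile normalization, 9 with scaling and 9 of the 11 hatched calls without IVV HB replicate 1.

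With the replicate number as a block, 13 probes were called between hatched and 16 between expanded blastocysts, all 26 earlier calls were kept, GPX6 (adjusted p = 0.037) and PRDX6 probe 31123 (0.0479) at the hatched and GLRX (0.0206) at the expanded stage were added, and PRDX1 had an adjusted p of 0.0349 from IVV XB to IVV HB, although the numbers do not pair arrays outside the parthenotes. The pairing of parthenotes, fitted as a block for PA arrays alone and chosen after seeing the data, called 0 probes from PA XB to PA HB, as without it.

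Without 1 array, the mitochondrial median ranged from -0.34 to -0.053 between hatched blastocysts, and it was -0.12 between expanded blastocysts with probes averaged. The cytosolic median was -0.056 after scaling and -0.043 with probes averaged between hatched blastocysts (-0.42 to -0.11 without 1 array), 0.053 with probes averaged between expanded blastocysts (-0.48 to -0.19), -0.12 to 0.13 from IVV XB to IVV HB, -0.080 to 0.16 from PA XB to PA HB and -0.11 to 0.21 for the difference between the hatching changes. Precision is limited by the 3 arrays a group, and a probe not called is not shown to be equal between groups.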
